A study of Mus musculus with 4 samples.

Results

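The cytosolic ribosome is built from ribosomal RNA and a set of small, mostly basic proteins that sit on a large and a small subunit. The genes of these proteins were examined in the mouse globus pallidus, a basal ganglia nucleus of GABAergic neurons fed by the striatum. Members were the genes whose probes carry exactly 1 symbol in the platform annotation and whose symbol is that of a large subunit protein (Rpl with a number and at most 1 letter, or Rplp0 to Rplp2) or of a small subunit protein (Rps with a number and at most 1 letter, or Rpsa). The rule found 137 spots of 72 genes among the 19087 genes with 1 symbol, of which 46 belong to the large and 26 to the small subunit. Of these genes 32 had 1 spot and 40 had several, up to 12 for Rplp0, and the spots of a gene were averaged. In 18 of those 40 genes the spots differed in the sign of their mean log2 ratio, with a median range of 0.06 over the spots of a gene.

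All animals were male mice of the C57BL6 background that went through conditioned place preference, a test in which a compartment is paired with a drug and the later preference is scored. The treated animals were given cocaine at 15 mg/kg on days 2, 3 and 4 and had a low score, and the controls were given saline solution on those days. Each of 4 two-colour arrays set pallidal RNA of a cocaine mouse against that of a saline mouse. The cocaine RNA carried Cy5 on arrays 1 and 3, and the dyes were exchanged on arrays 2 and 4. No cocaine group with a high score is among these arrays, so drug and score cannot be told apart, and the number of arrays limits the precision of every value.

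Most ribosomal proteins are present once in each particle, the stalk proteins Rplp1 and Rplp2 being exceptions, and their mRNAs are known to be translated together. Most begin with a C followed by a run of pyrimidines, the 5′ terminal oligopyrimidine tract, through which mTOR signalling and the binding protein Larp1 regulate them. In neurons the same mRNAs are found in dendrites and axons as well as in the cell body. Ribosomal protein genes also have many processed pseudogenes, so a probe may bind more than 1 transcript.

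RefSeq (GRCm38.p6) held a start region for 58 of the 72 members, matched by gene identifier. A tract was searched on the gene's own strand as a C followed by at least 4 letters that are C or T. It lay at the annotated start of 13 of the 58 members (22.4%), against 3.01% of 27025 genes in the same table. Beginning anywhere within 5 bases of the annotated start, it was found in 27 members (46.6%), against 21.2% of all genes and 24.6% of 69 mitochondrial ribosomal protein genes. Annotated starts can lie several bases from the true one, and a match is a description of letters only. The first 3 windows below are those of members named for their treatment values or as fixed choices, whose tract spans the annotated start. Members named only for their dye coefficient, from another list or to complete a count were not considered for them. Windows on a chromosome left out of the printing are not shown either, so these may not be all of them. The other windows belong to the 4 genes with an entry among the 6 members with the smallest p for treatment. Each runs 5′ to 3′ over 30 bases, 15 before the annotated start and 15 from it, and capitals mark the longest such tract.
Rplp2, chr7:141447636-141447665, plus strand: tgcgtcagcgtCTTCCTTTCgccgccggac
Rps6, chr4:86857353-86857382, minus strand: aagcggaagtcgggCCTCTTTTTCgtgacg
Rps27, chr3:90213634-90213663, minus strand: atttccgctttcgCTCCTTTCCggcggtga
Rpl4, chr9:64173372-64173401, plus strand: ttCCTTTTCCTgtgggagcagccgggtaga
Rps15, chr10:80292416-80292445, plus strand: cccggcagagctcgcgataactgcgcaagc
Rps13, chr7:116334176-116334205, minus strand: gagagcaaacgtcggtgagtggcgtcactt
Rpsa, chr9:120127751-120127780, plus strand: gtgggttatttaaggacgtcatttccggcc

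In the Rpl4 window the tract begins 13 bases before the annotated start, and the windows of Rps15, Rps13 and Rpsa hold none. The treatment values of members with and without a tract overlapped. The 27 members with a tract within 5 bases had mean log2 ratios from -0.10 to 0.09 (median -0.007, 13 above and 14 below 0). The 31 members without one had mean log2 ratios from -0.26 to 0.13 (median -0.01, 12 above and 19 below 0).

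The deposited values are log2 ratios with a strong dye bias, and the columns read as already turned to one treatment direction. On the values as deposited, the median over the 72 members was 1.15, -1.12, 1.40 and -1.54 on arrays 1 to 4. The sign followed the dye and not the animal. Across all 45018 spots the Pearson correlation of deposited values was 0.90 between arrays 1 and 3, 0.87 between arrays 2 and 4, and between -0.96 and -0.83 for arrays of opposite orientation. All ratios below are therefore after a loess curve fitted to the mean dye bias of both orientations. They are read as cocaine over saline, which is likely from the wording of the design but not settled, and every sign reverses under the other reading.

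No ribosomal protein gene passed the test of cocaine against saline. With limma, 0 of the 72 members had an adjusted p under 0.05, against 0 of 30452 features tested, a share of 0%, and the adjusted p of every member was 0.9995. The count of members with an unadjusted p under 0.05 was 0 as well, against 529 features or 1.74% of those tested. This last count was 0 without array 1, 2 without array 2, 5 without array 3 and 8 without array 4. The share of all features moved with it, to 0.969%, 2.49%, 4.91% and 8.76%, and 0 members passed the adjusted threshold in any of these fits. The mean log2 ratios of the members lay between -0.26 and 0.13, the median member was at -0.01, and 30 members were above and 42 below 0. Over all features the median was -0.0005, with 50.4% below 0. A total of 9 members had a mean more than 0.1 from 0, with 2 above and 7 below. The share of all features past this size was not counted, so these counts do not set the members apart. The SD of the mean log2 ratio was 0.074 over the members and 0.076 over all features.

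The size of the differences that these arrays allow was narrow. The 95% interval of the log2 ratio, from the same fit and with no adjustment for the number of genes, stayed inside 1.5-fold either way for 72 of 72 members, against 98.7% of all features. It stayed inside 1.25-fold for 66 members (91.7%), against 87.9% of all features. The 6 members with a wider interval were Rpl3, Rpl4, Rps14, Rps15, Rps29 and Rpsa, listed to complete the count, a choice made with their values in view. The SE of a member lay between 0.046 and 0.12. No background subtraction is visible in the deposited ratios, which can hold a fold below its true size, so the intervals describe the ratios as measured.

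**Figure D1:**
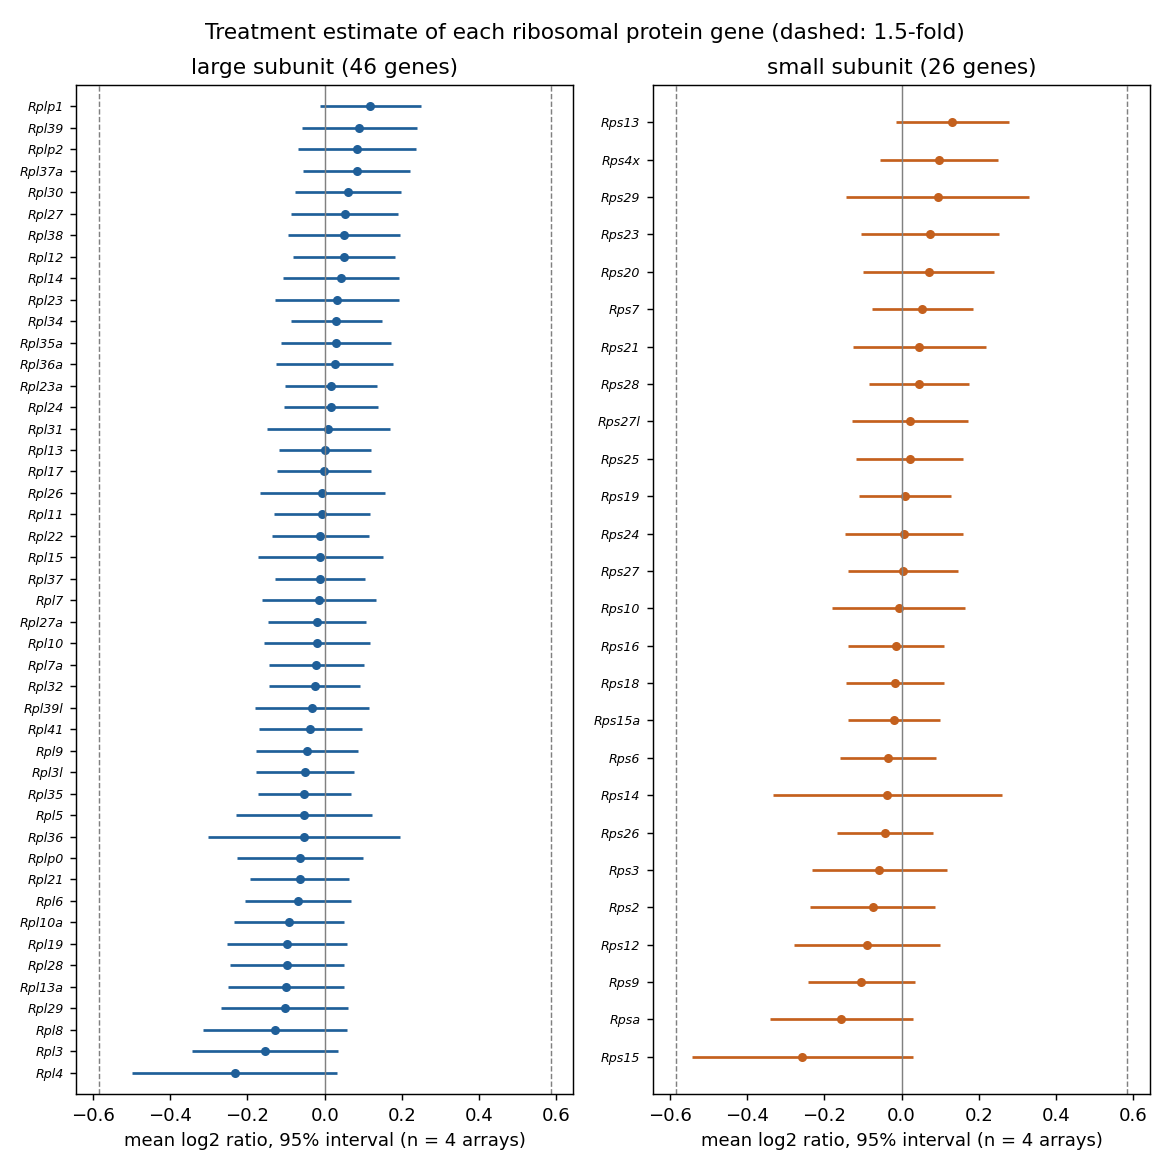
Mean log2 ratio of each gene (points) with its 95% interval (lines) from limma over 4 arrays, in the large subunit (left, 46 genes) and the small subunit (right, 26 genes). The dashed lines mark 1.5-fold, and all 72 intervals lie between them and cross 0.

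The large and the small subunit were compared by their medians on each array. For the large subunit the median log2 ratio was 0.007, -0.03, -0.01 and -0.01 on arrays 1 to 4. For the small subunit it was 0.03, -0.005, -0.01 and -0.001 on arrays 1 to 4. The large minus small difference was -0.02, -0.03, 0.001 and -0.01 on arrays 1 to 4, with a mean of -0.015 ± 0.012 (SD, n = 4 arrays). The large subunit median was thus the lower one on 3 of 4 arrays by at most 0.03. On the values as deposited, dye bias included, the difference was -0.06, -0.06, 0.12 and -0.09 (SD 0.098). The loess uses all arrays together, so the SD of 0.012 does not come from 4 free values. Single genes overlapped between the subunits on every array, and on array 2 the small subunit ran wider (-0.41 to 0.32) than the large one (-0.34 to 0.15). In the large subunit 17 genes had a mean above and 29 below 0, and in the small subunit 13 were above and 13 below.

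The spread of the members among themselves differed between arrays. The SD over the 72 log2 ratios was 0.17, 0.13, 0.05 and 0.10 on arrays 1 to 4. On array 3, 69 of 72 members lay within 0.1 of 0, against 30 on array 1. Of all 30452 features, 22801 lay within 0.1 of 0 on array 3 and 18444 on array 1. Over the 16598 features whose every spot lay above a background stand-in (a limit on the mean dye bias, used in place of intensities to set aside dim spots), the SD was 0.20, 0.22, 0.12 and 0.16 on arrays 1 to 4, so array 3 was the narrowest for these features too. The loess ties the 4 values of a gene together, because it takes out the averaged difference between both dye orientations.

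**Figure D2:**
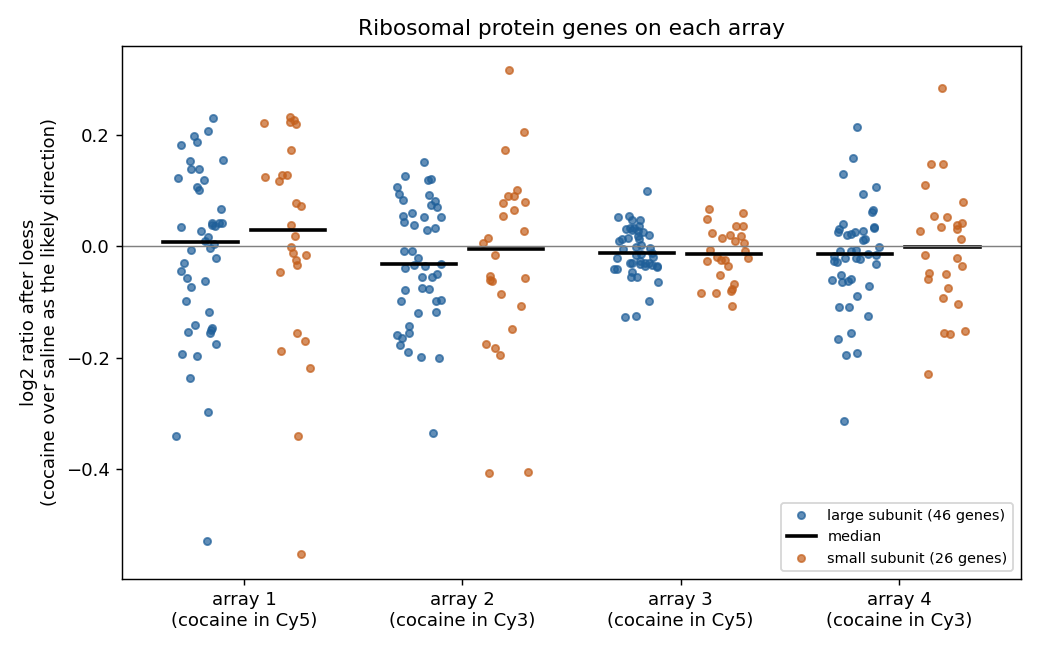
Log2 ratio after loess (vertical axis) of every ribosomal protein gene on each of the 4 arrays, with the large subunit in blue, the small subunit in orange and the subunit median as a black bar. The medians lie between -0.03 and 0.03, and the points spread widest on array 1 and least on array 3.

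Among large subunit genes the smallest p belonged to Rplp1, one of the acidic proteins of the P stalk, which recruits translation factors to the ribosome. Rplp1 had a log2 ratio of 0.19, 0.03, 0.10 and 0.16 on arrays 1 to 4. It was above 0 on every array, with a mean of 0.12 (SE 0.05), an unadjusted p of 0.069 and an adjusted p of 0.9995 with limma. Its stalk partner Rplp2 had log2 ratios of 0.23, 0.06, -0.02 and 0.06 on arrays 1 to 4 (mean 0.08, SE 0.06). Rplp0, the protein that anchors both to the ribosome, had log2 ratios of -0.18, -0.16, 0.05 and 0.03 (mean -0.06, SE 0.06). Without array 1 the mean of Rplp2 was 0.005 and that of Rplp1 was 0.07. Without array 4 the mean of Rplp1 was 0.20, with an unadjusted p of 0.024 and an adjusted p of 0.49 with limma. Here and below, the mean of a gene without an array is the treatment estimate refitted on the remaining arrays. The loess was repeated and the dye term kept, so this mean is not the average of the values printed for those arrays. The 3 stalk genes shared a sign on array 4 only. The 12 Rplp0 spots had means between -0.10 and 0.06.

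Rpl4, which lines the narrowest stretch of the tunnel through which the new polypeptide leaves, had the lowest mean of the large subunit. Its log2 ratio was -0.53, -0.14, 0.05 and -0.31 on arrays 1 to 4 (mean -0.23, SE 0.10, or 1.18-fold lower as an estimate that did not pass, adjusted p 0.9995 with limma). Rpl3, a protein near the peptidyl transferase centre, had log2 ratios of -0.34, -0.12, 0.03 and -0.19 (mean -0.15, SE 0.07). Rpl8, another protein near that centre, had log2 ratios of -0.30, -0.20, 0.05 and -0.07 (mean -0.13, SE 0.07). These 3 genes were below 0 on arrays 1, 2 and 4 and slightly above 0 on array 3. Without array 3 the means were -0.38 for Rpl4, -0.26 for Rpl3 and -0.25 for Rpl8, with unadjusted p of 0.0068, 0.017 and 0.027 and an adjusted p of 0.9999 for each with limma. Without array 1 they were -0.09 for Rpl4, -0.06 for Rpl3 and -0.04 for Rpl8.

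The 8 listed genes at the exit tunnel and its mouth, Rpl4 among them, had a median of -0.004, with 3 above and 5 below 0. Rpl39, a short protein of the tunnel wall whose gene is X-linked, stood on the other side from Rpl4, with log2 ratios of 0.21, 0.13, -0.01 and 0.04 (mean 0.09, SE 0.06). Rpl5 and Rpl11, which join the 5S ribosomal RNA and which bind Mdm2 when ribosome assembly is disturbed, had means of -0.05 (SE 0.07) and -0.007 (SE 0.05). Rpl5 had log2 ratios of -0.15, 0.08, 0.05 and -0.20 on arrays 1 to 4, and Rpl11 stayed within 0.06 of 0 on each array. The 2 Rpl11 spots averaged for this had means of opposite sign, 0.08 and -0.09. Rpl36 had the second largest spread of the large subunit, with log2 ratios of 0.004, -0.34, -0.10 and 0.21 (SD 0.23) around a mean of -0.05 (SE 0.10).

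In the small subunit Rps15, whose tail reaches towards the decoding centre, had the lowest mean of all members. Its log2 ratio was -0.55, -0.41, 0.04 and -0.10 on arrays 1 to 4 (mean -0.26, SE 0.11, or 1.20-fold lower as an estimate that did not pass, unadjusted p 0.069 and adjusted p 0.9995 with limma). Arrays 1 and 2 were far below 0 and array 3 was not. Without array 1 its mean was -0.11. Without array 3 it was -0.40, with an unadjusted p of 0.0097 and an adjusted p of 0.9999 with limma. Rpsa, a protein of the subunit's head side that is also known as a laminin receptor, had log2 ratios of -0.34, -0.15, 0.02 and -0.16 (mean -0.16, SE 0.07). Its mean was -0.07 without array 1 and -0.24 without array 3 (unadjusted p 0.023, adjusted p 0.9999 with limma). Rps9, a protein at the mRNA entry, was below 0 on every array, with -0.19, -0.05, -0.02 and -0.15 (mean -0.10, SE 0.05). The 4 listed genes of mRNA entry and decoding, Rps2, Rps3, Rps15 and Rps23, had a median of -0.07, with 1 above and 3 below 0.

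Rps13, on the side of the small subunit that faces the large one, had the highest mean of all members. It had log2 ratios of 0.22, 0.20, 0.05 and 0.05 on arrays 1 to 4 (mean 0.13, SE 0.06, unadjusted p 0.070 and adjusted p 0.9995 with limma). Its 2 spots had means of 0.05 and 0.21. The mean of Rps13 was 0.08 without array 1 and 0.21 without array 4 (unadjusted p 0.026, adjusted p 0.50 with limma). Rps14, which is known for its loss in the human 5q- syndrome, had the widest spread of all members, with -0.05, -0.41, 0.02 and 0.28 (SD 0.28). Its mean was -0.04 (SE 0.12) and rested on 1 spot. The means of Rplp1, Rplp2, Rpl3, Rpl4, Rpl5, Rpl8, Rpl39, Rps9 and Rps15 also rested on 1 spot each. Rps6, the target of S6 kinase downstream of mTOR, had log2 ratios of 0.02, -0.06, -0.08 and -0.02 (mean -0.04, SE 0.05), and no array was more than 0.1 from 0.

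Few genes kept 1 sign on every array. Rplp1, Rpl37a and Rps13 were above 0 on 4 of 4 arrays, which is 4.17% of the members, against 8.19% of all features. Another 8 were below 0 on 4 of 4 arrays (Rpl10a, Rpl21, Rpl28, Rpl32, Rpl35, Rpl37, Rpl3l and Rps9), which is 11.1%, against 7.57% of all features. Rpl37a, Rpl10a, Rpl21, Rpl28, Rpl32, Rpl35 and Rpl37 are named to complete these counts, a choice made with their values in view. Rpl37 was the steadiest member, with log2 ratios of -0.003, -0.009, -0.02 and -0.02 on arrays 1 to 4.

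The rule also takes in 3 paralogs with their own expression domains. Rpl3l, known from heart and skeletal muscle, had log2 ratios of -0.10, -0.10, -0.001 and -0.009 (mean -0.05, SE 0.05), against a mean of -0.15 for its parent Rpl3. Rpl39l, known from the testis, had log2 ratios of 0.07, -0.10, -0.13 and 0.03 (mean -0.03, SE 0.06), against 0.09 for Rpl39. Rps27l, which p53 induces, had log2 ratios of 0.13, 0.08, -0.08 and -0.04 (mean 0.02, SE 0.06), against 0.005 (SE 0.06) for Rps27. Of the X-linked parents, Rpl10 had a mean of -0.02 (SE 0.05), and Rps4x had log2 ratios of 0.23, 0.08, -0.03 and 0.11 (mean 0.10, SE 0.06). Among 11 measured genes that are mutated in human Diamond-Blackfan anaemia, 5 were above and 6 below 0, with means between -0.05 and 0.09. Rps7 had the smallest p of these, with a mean of 0.05 (SE 0.05).

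The numbers in ribosomal protein symbols were given by migration on gels, so a higher number tends to mark a smaller protein. Array values followed this number in part, a relation noticed after the values were seen. Over 41 large subunit genes Spearman's rho between number and log2 ratio was 0.54, 0.20, -0.43 and 0.50 on arrays 1 to 4. Over 24 small subunit genes it was 0.39, 0.37, -0.42 and -0.24. The Pearson correlations were 0.56, 0.15, -0.44 and 0.47 for the large and 0.35, 0.37, -0.40 and -0.18 for the small subunit. The 16 large subunit genes numbered up to 15 had a median of -0.09 on array 1, against 0.03 for the 13 genes numbered 16 to 30 and 0.07 for the 12 genes numbered 31 to 41. These correlations run across genes of the same arrays, which are not independent replicates. In both subunits the sign on array 3 was opposite to that on arrays 1 and 2. The loess ties the values of a gene on the arrays together, so these signs are not free of each other. Transcript length and probe position were not used, so their part in this relation was not tested.

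**Figure D3:**
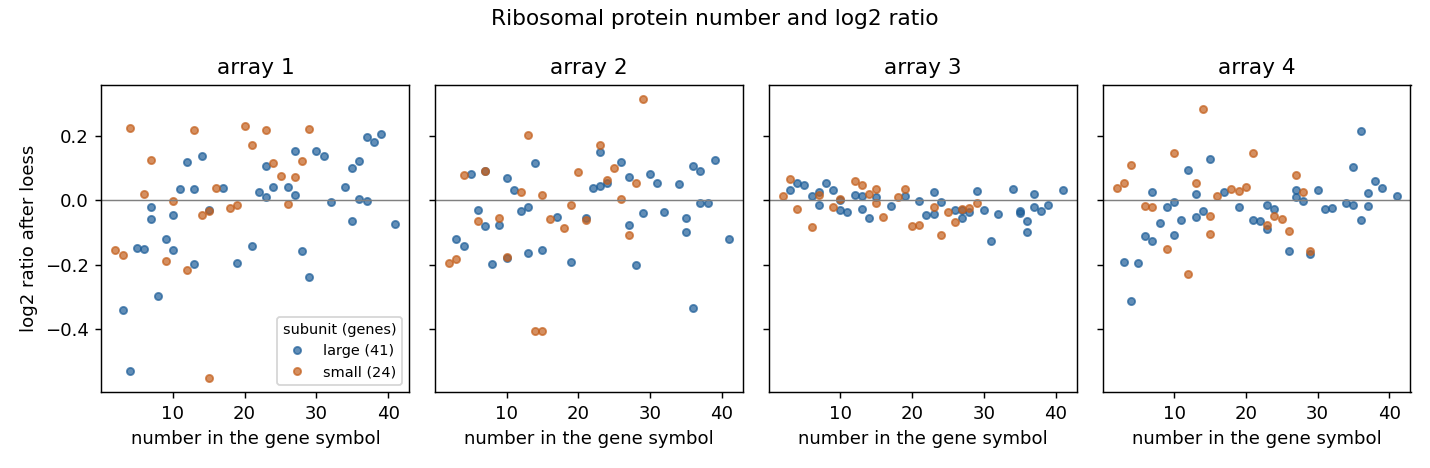
Log2 ratio after loess (vertical axis) against the number in the gene symbol (horizontal axis) on each array, for 41 large subunit genes in blue and 24 small subunit genes in orange. Points rise with the number on array 1 and fall slightly on array 3.

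The log2 ratios of the members were also set against each other between arrays. The correlation of log2 ratios over the 72 members was 0.67 between arrays 1 and 2, 0.49 between arrays 1 and 4 and -0.46 between arrays 1 and 3. Over all features it was 0.53, 0.18 and -0.38 for the same pairs. For arrays 2 and 4 it was -0.28 over the members and -0.52 over all features. For arrays 2 and 3 it was -0.16 against 0.17, and for arrays 3 and 4 it was -0.17 against 0.13. The loess makes the mean of arrays 1 and 3 nearly equal to that of arrays 2 and 4 for each gene. This alone lowers the correlation of arrays of the same orientation and raises that of arrays of opposite orientation. The signs of these correlations therefore cannot be read as likeness or difference of the animals, and the values are given as a description.

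Nearly every ribosomal protein gene carried the dye bias. In a limma fit on the values as deposited, 71 of 72 members (98.6%) had a positive dye coefficient with an adjusted p under 0.05, against 54.4% of all features. Among features above the background stand-in, which is itself set on this bias, the share was 88.4%. It was 78 of 78 genes among mitochondrial ribosomal proteins (median coefficient 1.17) and 9 of 9 among elongation factors (median 1.03). A positive coefficient means that Cy5 was brighter than Cy3 if the columns are cocaine over saline. The median coefficient was 1.30 over the members, 0.36 over all features and 0.86 over the features above the background stand-in. The highest were those of Rplp1 at 2.17 (SE 0.06), Rpl37a at 1.89 (SE 0.08) and Rps23 at 1.89 (SE 0.10). The lowest were those of Rpl39l at -0.02 (SE 0.07), Rpl3l at 0.31 (SE 0.07) and Rps25 at 0.49 (SE 0.08). Rpl39l did not pass (adjusted p 0.79 with limma), and 1 of its 2 spots was not above the stand-in. The 3 spots averaged for Rps25 were unlike, with a dye bias of 1.34, 0.45 and -0.31, the last not above the stand-in. Of the 137 member spots 130 were above it, against 28985 of all 45018 spots, and every member had at least 1 such spot.

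**Figure D4:**
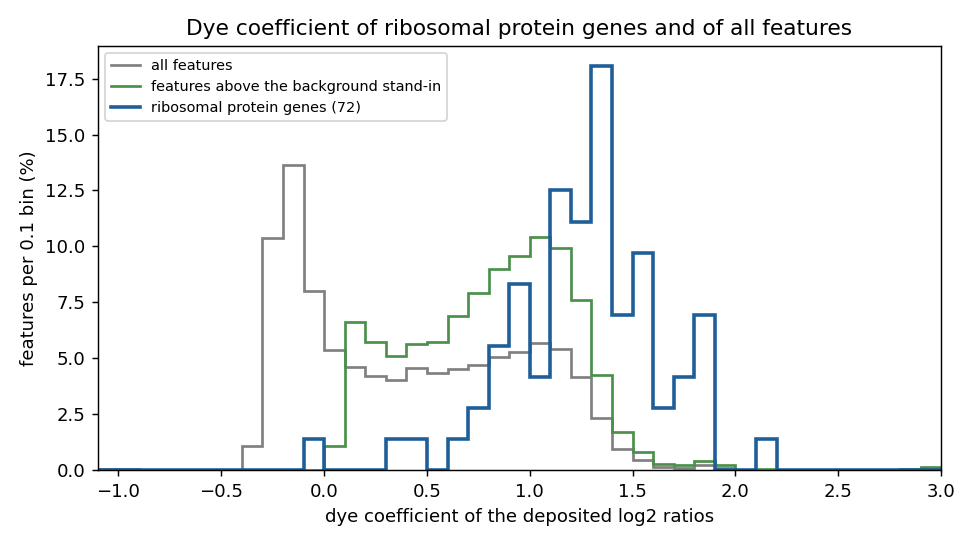
Share of features in each 0.1-wide bin (vertical axis, percent) of the dye coefficient of the deposited log2 ratios (horizontal axis), for 72 ribosomal protein genes in blue, all 30452 features in grey and the 16598 features above the background stand-in in green. The median is 1.30 over the ribosomal protein genes and 0.36 over all features. All features peak between -0.2 and -0.1 and again between 1.0 and 1.1, on either side of their median.

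Other genes of the translation machinery did not pass either, with 0 members past an adjusted p of 0.05 and 0 at an unadjusted p under 0.05 in each of the lists that follow. Mitochondrial ribosomal proteins, which build the separate ribosome of that organelle, had a median log2 ratio of -0.03 over 78 genes, with 23 above and 55 below 0. Their medians were -0.06, -0.09, 0.01 and 0.02 on arrays 1 to 4, and Mrpl48 had the smallest p, with a mean of -0.13 (SE 0.07). All 9 elongation factors had a mean below 0 (median -0.05), with list medians of -0.17, -0.04, 0.08 and -0.04 on arrays 1 to 4. Eef2, the translocation factor that binds at the P stalk, had log2 ratios of -0.65, -0.18, 0.15 and -0.31 (mean -0.25, SE 0.13), and like Rpl4 it was above 0 on array 3 alone.

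Initiation factors had a median of -0.02 (14 of 30 above 0), with Eif4b, a helper of the mRNA helicase Eif4a, at -0.13 (SE 0.06). Ribosome biogenesis factors had a median of -0.02 (11 of 35 above 0), with Mrto4 at -0.15 (SE 0.07). The RNA polymerase I list, which makes the ribosomal RNA precursor, had a median of -0.02 (5 of 13 above 0), with Polr1c at -0.13 (SE 0.07). The mTOR and S6 kinase list had a median of -0.003 (9 of 18 above 0), and Mtor itself had log2 ratios of -0.22, -0.30, -0.05 and 0.05 (mean -0.13, SE 0.08). Of ribosomal proteins and close relatives that the symbol rule leaves out, Fau, which encodes a small subunit protein fused to a ubiquitin-like one, had a mean of 0.05 (SE 0.07). Rpl22l1, Rpl7l1 and the Rps19-binding protein gene Rps19bp1 had means of 0.07, -0.03 and -0.08.

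**Figure D5:**
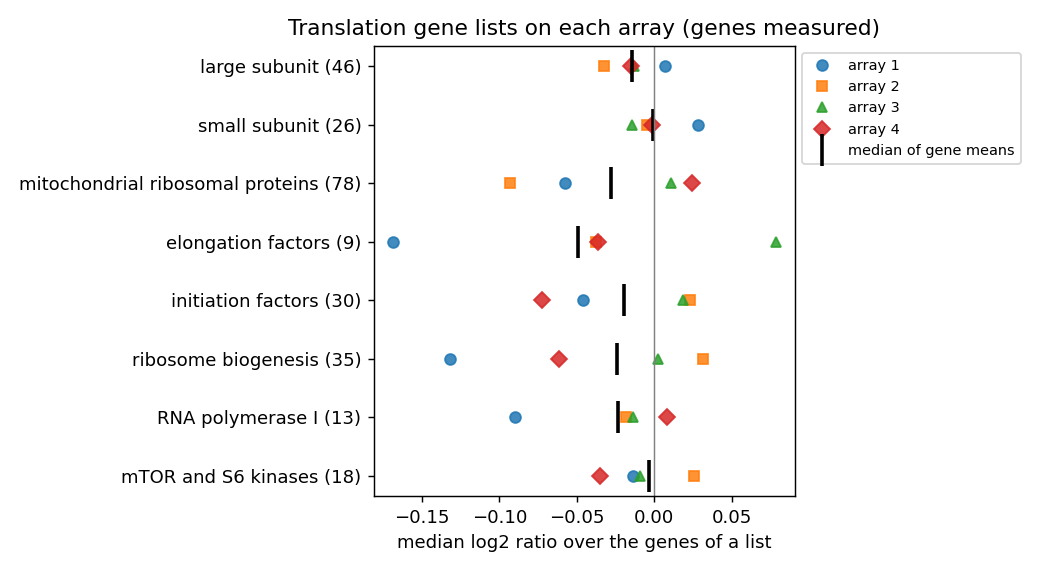
Median log2 ratio (horizontal axis) of both ribosomal subunits and 6 other translation lists on each array (symbols), with the median of the gene means as a black bar and the number of genes in parentheses. Both subunits stay within 0.04 of 0 on every array, and the elongation factors run from -0.17 on array 1 to 0.08 on array 3.

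Markers of cell types were read beside these values, since ratios of dissected tissue cannot separate fewer cells of a type from less RNA per cell. Every spot was above the background stand-in for 11 of 12 pallidal neuron, 7 of 7 oligodendrocyte, 7 of 7 microglia and 7 of 8 astrocyte markers. The same held for 6 of 7 striatal, 6 of 8 endothelial and mural, 4 of 7 cortical or thalamic and 3 of 5 basal forebrain cholinergic markers. Over all 19087 genes it held for 11363. The pallidal list had medians of -0.05, -0.01, -0.02 and -0.08 on arrays 1 to 4. Oligodendrocyte markers had medians of -0.16, -0.10, -0.04 and -0.05, and cortical or thalamic markers -0.23, 0.16, 0.42 and 0.09. Cholinergic markers had medians of -0.29, -0.01, -0.02 and -0.29, astrocyte markers -0.07, -0.02, -0.02 and -0.06, and microglia markers -0.14, -0.05, 0.06 and 0.005. Striatal markers had medians of 0.12, 0.26, 0.13 and -0.10, and endothelial and mural markers -0.02, 0.08, -0.001 and -0.07. The medians of 5 lists (oligodendrocyte, cortical or thalamic, cholinergic, astrocyte and microglia) were lowest on array 1, where Rpl4 and Rps15 were also lowest. For the cholinergic list this was by little (-0.291, against -0.290 on array 4). The median over the 72 ribosomal protein genes was instead highest on array 1, at 0.01 with 38 above and 34 below 0. Rplp2, Rpl39 and Rps13 were highest there too. The medians of the cortical or thalamic and microglia lists were highest on array 3, as was Rpl4. The part of these cell types in the ribosomal protein values was not tested.

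Ache, the enzyme that breaks down acetylcholine, had the smallest p of the cholinergic list, in which 0 genes were above and 5 below 0. Its log2 ratios were -0.29, -0.30, -0.17 and -0.14 (mean -0.23, unadjusted p 0.0088 with limma). Nrgn, a calmodulin-binding protein of forebrain neurons, had the smallest p of the cortical or thalamic list (5 genes above and 2 below 0). Its log2 ratios were 0.07, 0.20, 0.43 and 0.27 (mean 0.24, unadjusted p 0.019 with limma). On array 1 it was above 0 while the median of its list was -0.23. Ache and Nrgn each kept 1 sign on 4 arrays, and the adjusted p of both was 0.9995 with limma. In the other lists the genes with the smallest p had means of -0.15 (Vamp1, pallidal), 0.13 (Rgs9, striatal), -0.11 (Mal, oligodendrocyte) and -0.15 (Aqp4, astrocyte). Tmem119 of the microglia list had a mean of -0.17, and Cldn5 of the endothelial and mural list 0.18. None of these 6 had an unadjusted p under 0.05. They do not stand for their lists, which held genes of both signs. Genes above and below 0 were 4 and 8 (pallidal), 5 and 2 (striatal) and 1 and 6 (oligodendrocyte). For the astrocyte, microglia and endothelial and mural lists they were 3 and 5, 2 and 5, and 6 and 2.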

How the data were processed

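The table deposited by the authors gives log2 ratios of 45220 spots (4 columns, 0 unused, 0 missing values). The arrays carry 60-mer probes in a 44k format, and 75 ng of RNA was amplified and labelled, per the labels. Agilent Feature Extraction was used, per the submitters' processing notes, and further steps are not given in the sources used here. Columns of exchanged dyes correlated negatively, so the log2 columns were read as deposited in 1 treatment direction, not as Cy5 over Cy3. Scale (log2) and direction are likely, not stated, and the columns were not centred (medians 0.33, -0.25, 0.49 and -0.56).

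Rows at 0 on all arrays (202) were left out. Loess curves (loessFit of limma, span 0.3) on the mean dye bias of both orientations were then subtracted from each array. Spots of a gene were then averaged, which gave 30452 features. Spots with several symbols (56) or without one (11511) stayed single. All 72 members matched RefSeq by Entrez identifier. Features were tested with limma 3.58.1 in R 4.3.3 (treatment and dye terms, eBayes, 5.21 degrees of freedom) with p-values adjusted by Benjamini-Hochberg across every feature (threshold 0.05). The dye term was fitted on the deposited values. A spot was above the background stand-in where the averaged dye bias exceeded 0.085, 3 SDs above the mode of dim spots. No intensities were used. The steps were tested on simulated data.

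Members and lists were chosen with earlier results of these data known. Named members are the 4 per subunit with the smallest p, the 2 with the largest absolute mean and the 2 with the largest SD. Fixed stalk, 5S, S6, Rpsa and paralog genes, and the 3 highest and 3 lowest dye coefficients, are named too. Of each other list the gene with the smallest p is named. Animal codes in the labels differ between channels, so an array was taken as 1 replicate. Alternatives were other normalizations, spans, spot summaries, filters and fits, and leaving out each array, with loess and fit repeated on the rest. No array genome build was named, and the coordinates are those of RefSeq's start regions.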

Additional observations from a re-analysis of the deposited data

How the results depend on the processing

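The count of 0 ribosomal protein genes past the adjusted threshold held under all 13 alternatives, and 71 members with a dye effect became between 69 and 71. Over all features median centring turned the count of 0 into 18, with no member among them, and stayed 0 under the other alternatives. The large minus small difference, -0.015, ranged from -0.035 to -0.004 without single arrays, and from -0.024 to -0.011 under the other settings. Among the latter are 2 settings added after the data were seen, the difference without the 3 paralogs and that over genes with every spot above the background stand-in. The mean over arrays of the large subunit median, -0.013, was -0.036 with no normalization and -0.037 with median centring. Without single arrays it ranged from -0.043 to 0.029, and the small subunit median, 0.002, ranged from -0.0265 to 0.0525, so the sign of neither is settled. Of single genes, Rps27 had a mean of -0.0175 with no normalization, -0.0187 with median centring and -0.0006 with a span of 0.7. With a span of 0.1 Rpl11 stood at 0.0181 and Rps14 at 0.0334. Without single arrays the sign turned for Rpl10 (-0.0575 to 0.0276), Rpl11 (-0.0298 to 0.0571), Rpl36 (-0.088 to 0.1228), Rpl39l (-0.0819 to 0.0232), Rpl5 (-0.1337 to 0.0581), Rps14 (-0.1416 to 0.2055), Rps27 (-0.0475 to 0.1219) and Rps27l (-0.0301 to 0.0699). The means of Rpl4 (-0.38 to -0.09), Rps15 (-0.40 to -0.11), Rplp1 (0.07 to 0.23) and Rps13 (0.08 to 0.21) kept their sign. So did Rpl3 (-0.26 to -0.06), Rpl8 (-0.25 to -0.04), Rpsa (-0.24 to -0.07), Rplp2 (0.005 to 0.20), Rplp0 (-0.13 to -0.007), Rpl39 (0.03 to 0.17), Rps4x (0.03 to 0.13), Rps6 (-0.06 to -0.007), Rps9 (-0.15 to -0.06) and Rpl3l (-0.08 to -0.03), although each of these moved by over 1.5 times. The cause of these shifts was not tested. No paired analysis was possible because all arrays form 1 group, beyond the pairing of a cocaine with a saline mouse that each ratio already holds. No value of the named members or the subunit medians stood far from the other arrays among 25 groups of 4 examined.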
